A study of Mus musculus with 12 samples.

Results

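Caspases are proteases that cut target proteins after aspartate residues. Total mRNA of 6 caspase genes (Casp1, Casp2, Casp4, Casp6, Casp8 and Casp9) and of Casp8ap2, which encodes the caspase-8 associated protein FLASH, was followed in LPS-activated mouse B cells after DNA damage. The 7 genes were taken by name from a table of 29486 genes, and all 7 passed a filter that kept 15596 genes (10 or more normalized counts in 4 or more libraries). B cells isolated from the spleens of C57BL/6Babr mice were cultured with LPS, a bacterial mitogen, at 10 μg/ml in all 3 groups. The LPS group received LPS alone for 48 h. The LE group received etoposide, a topoisomerase II inhibitor that causes DNA double-strand breaks, at 20 μM for 4 h after 48 h with LPS. The LEKU group received KU55933, an inhibitor of the DNA damage kinase ATM, at 10 μM for 1 h after 47 h with LPS, and then the same dose and time of etoposide. Each group had 4 libraries. Whether the LPS group was also kept for the last 4 h is not given in the labels. No group received KU55933 without etoposide, so that an effect of KU55933 by itself cannot be told apart from its effect under etoposide. The indexes of the libraries differed between groups, so that index and treatment also cannot be told apart.

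The deposited values set what can be compared. Over all genes, the 4 columns of a group were the same profile multiplied by a library factor, as fitted group means are, so the spread between replicates was not in the table. No test between groups could be run, and the differences below are ratios of group values without replicate error. A difference is called here only by its size, a ratio past 1.5-fold, with no p-value. Ratios are log2 differences of normalized counts with 1 added, and the 95% intervals beside them cover counting error only. Column totals, rounded, were 20740000 to 23935700 for LPS, 22523500 to 30575200 for LE and 20401000 to 25052100 for LEKU. All 8 genes of a list of p53 targets (Cdkn1a, Mdm2, Ccng1, Bax, Bbc3, Phlda3, Perp and Eda2r) were past 1.5-fold higher in LE and in LEKU than in LPS, but Perp and Eda2r reached 10 counts only with etoposide and passed the filter through those groups. B cell markers were abundant in every group, with all 7 between 1127 and 31157 normalized counts, but their sum was 140242 in LPS, 77169.6 in LE and 86053 in LEKU, and 6 of 7 were past 1.5-fold lower in LE than in LPS. Markers of neutrophils (4 of 4) and most markers of T cells (5 of 6) and NK cells (2 of 3) were under 10 in every group, and macrophage and monocyte markers summed to 415, 470 and 431 in LPS, LE and LEKU. Within that sum, 3 of 6 (Cd14, Cd68 and Csf1r) were past 1.5-fold higher and 1 (Itgam) lower in both LE and LEKU than in LPS. Csf1r passed the filter only through LE. Red cell markers summed to 68.3, 51.4 and 36.7. The part of these marker differences in the caspase values was not tested, and in bulk RNA fewer cells of a type and less RNA per cell cannot be told apart.

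Initiator caspases are switched on in large complexes. Casp8 is recruited to death receptors through the adaptor Fadd, Casp9 is activated on the apoptosome that Apaf1 forms with cytochrome c released from mitochondria, and Casp2 is activated by Pidd1 through Cradd in the PIDDosome. They act on executioner caspases, which cleave proteins in dying cells, and of these Casp6 is known for cleaving lamins. Casp1 and Casp4 are inflammatory caspases: Casp1 matures IL-1β and IL-18 in inflammasomes, and mouse Casp4 responds to LPS in the cytosol. Caspases are made as inactive precursors, so that an mRNA level is not a measure of activity.

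The regions just before the start sites of the 3 initiator genes are shown because Casp8 and Casp9 were the members past 1.5-fold and Casp2 came next. Sequences are 250 bases upstream of the RefSeq start (GRCm38.p6, plus strand, 5′ to 3′), and none of these windows held an annotated exonic base. Capitals mark matches, on either strand, to the CCAAT box (CCAAT), the GC box (GGGGCGGGG) and an E2F motif (TTTCCCGC or TTTGGCGC). The motifs were chosen after the values were seen.
Casp8, chr1:58802252-58802501: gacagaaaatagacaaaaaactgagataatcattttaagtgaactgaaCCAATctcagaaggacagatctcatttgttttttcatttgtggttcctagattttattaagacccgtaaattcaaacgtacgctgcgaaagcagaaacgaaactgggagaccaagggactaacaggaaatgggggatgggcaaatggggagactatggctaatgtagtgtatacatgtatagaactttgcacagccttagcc
Casp9, chr4:141793362-141793611: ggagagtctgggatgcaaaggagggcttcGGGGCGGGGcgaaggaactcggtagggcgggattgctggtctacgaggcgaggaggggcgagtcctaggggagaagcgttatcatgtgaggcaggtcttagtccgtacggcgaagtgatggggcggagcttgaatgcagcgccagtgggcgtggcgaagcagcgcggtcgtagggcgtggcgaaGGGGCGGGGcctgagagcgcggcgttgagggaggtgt
Casp2, chr6:42264735-42264984: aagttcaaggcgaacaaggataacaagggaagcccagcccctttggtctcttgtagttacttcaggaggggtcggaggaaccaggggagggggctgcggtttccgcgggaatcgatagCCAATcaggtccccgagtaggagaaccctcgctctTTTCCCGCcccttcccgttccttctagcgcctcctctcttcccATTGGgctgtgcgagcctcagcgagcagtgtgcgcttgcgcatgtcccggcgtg

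None of the marked motifs was found in all 3 windows. The Casp8 window was 39.6% G and C and held 1 CCAAT box, starting at position -202 from the start site. The Casp9 window was 66% G and C and held GC boxes at -221 and -37, and no CCAAT box. The Casp2 window was 60.4% G and C, with CCAAT boxes at -132 and -54 and an E2F motif at -97. Casp8ap2, the other member with an E2F match, had it at -176. Of 32851 promoter windows of this length, 33.8% held a CCAAT box, 10.4% the GC box and 1.3% either E2F motif. Matches to the TATA box (TATAAA, in 12.4% of windows), to the gamma-activated site (TTCNNNGAA, in 7.02%) and to the p53 half-site (in 7.13%) were in none of the members' windows. The NF-kB motif, found in 7.25% of windows, was matched among the members by Casp4 only. All 7 members had a RefSeq window, and a match says nothing about binding.

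Among the 7 members, Casp8 and Casp9 mRNA was lower by more than 1.5-fold in LE than in LPS, and no member was higher by that much. With the columns as deposited, without size factors, Casp8 was at a log2 ratio of -0.48 and lost this call, and Casp6 at 0.68 was past 1.5-fold higher. Over all genes that passed the filter, 15.8% were lower and 22.2% higher by more than 1.5-fold in LE than in LPS. With 7 members, a count of 2 is too small to set apart from that share. The median log2 ratio of LE to LPS was -0.17 over the members and -0.0023 over all genes, and 5 of 7 members were below 0. In LEKU against LPS the same 2 genes were past 1.5-fold lower, beside 15.3% of all genes lower and 20.8% higher. These calls depended on scaling: with column totals Casp8 was still past 1.5-fold at -0.59 and Casp9 was short of it at -0.49, and with the columns as deposited both were short of it, at -0.53 and -0.43. With the size factors used throughout, the members' median in LEKU against LPS was -0.13, against 0.031 for all genes. Between LEKU and LE no member passed 1.5-fold in either direction, where 11.8% of all genes were lower and 7.06% higher in LEKU, and the members' median was 0.045 against -0.043. The LE and LEKU comparisons with LPS share the LPS libraries.

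**Figure D1:**
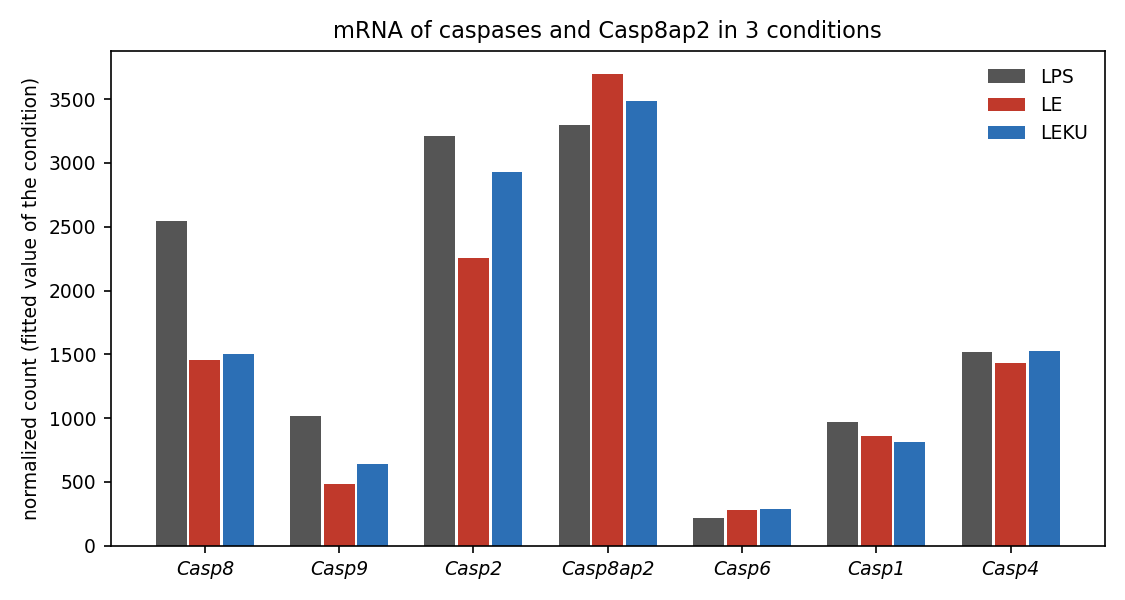
Normalized count (y axis, linear, from 0) of the 7 genes (x axis) in LPS, LE and LEKU, with 1 bar for the fitted value of each group and no error bar because the deposited columns hold no replicate spread. Casp8 stood at 2543 in LPS and at 1457 and 1504 in LE and LEKU, whereas Casp9 stood at 1015, 480 and 642.

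Casp8 (ENSMUSG00000026029, chr1:58795374-58847503, plus strand) was lower with etoposide, with or without KU55933. The deposited values were 2093, 2322, 2415 and 2176 in the LPS columns, 1410, 1581, 1914 and 1532 in the LE columns, and 1364, 1538, 1647 and 1675 in the LEKU columns. Every LPS column was above every LE and LEKU column, and the LE and LEKU columns overlapped. The columns of a group are 1 fitted value times library factors, for this gene as for all others, so this separation is not one between replicates. After division by size factors the levels were 2543 in LPS, 1457 in LE and 1504 in LEKU. The level was 1.75-fold lower in LE than in LPS, a log2 ratio of -0.80 (95% counting interval -0.85 to -0.76). In LEKU it was 1.69-fold lower than in LPS, at -0.76 (-0.80 to -0.71). The log2 ratio of LEKU to LE was 0.045, with a counting interval of -0.0049 to 0.096 that includes 0. The difference from LPS in LEKU was thus 94.4% of that in LE on the log2 scale, with a counting SE of 3.11 percentage points. The annotated gene starts before the RefSeq start used for the printed window, at which position 58802502 is the first transcribed base. A gene model on the same strand, Gm37760, lies within the Casp8 span, shares no exonic base with it and had 20.3, 14.0 and 17.1 normalized counts in LPS, LE and LEKU.

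Casp9 (ENSMUSG00000028914, chr4:141793612-141815976, plus strand) had the lowest ratio of LE to LPS among the members, and its level in LEKU lay between those in LE and LPS. The columns read 835, 926, 963 and 868 in LPS, 464, 521, 630 and 505 in LE, and 583, 657, 704 and 715 in LEKU. The columns were again highest in LPS, and differ within a group by the library factor alone. Normalized levels were 1015 in LPS, 480 in LE and 642 in LEKU. Casp9 was 2.11-fold lower in LE than in LPS, at a log2 ratio of -1.08 (-1.16 to -1.0). It was 1.58-fold lower in LEKU than in LPS, at -0.66 (-0.73 to -0.59), and 1.34-fold higher in LEKU than in LE, at 0.42 (0.34 to 0.50). The LEKU difference from LPS was 61.1% of the LE difference, with a counting SE of 3.26 percentage points. The intervals of these ratios exclude 0 for counting error, which leaves the spread between mice or cultures unmeasured. The antisense genes Cela2a and Ctrc each share 94 exonic bases with Casp9, and each was at or under 0.093 normalized counts in every group.

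Casp2 (ENSMUSG00000029863, chr6:42264985-42282508, plus strand) was the member just short of 1.5-fold. Its columns read 2644, 2934, 3052 and 2750 in LPS, 2183, 2447, 2964 and 2372 in LE, and 2656, 2995, 3209 and 3262 in LEKU. Before size factors were applied the LE columns overlapped with both other groups, again through the library factors. Normalized levels were 3214 in LPS, 2256 in LE and 2929 in LEKU. The log2 ratio of LE to LPS was -0.51 (-0.55 to -0.47), a level 1.42-fold lower, and that of LEKU to LPS was -0.13 (-0.17 to -0.097). LEKU was 1.298-fold above LE, at 0.38 (0.34 to 0.41). Of the 3 initiator genes, Casp9 and Casp2 thus had a higher value in LEKU than in LE by 0.42 and 0.38, and Casp8 by 0.045. The snoRNA gene model Gm25108 inside Casp2 shares no exonic base with it and was at 5.21 to 6.08 normalized counts.

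**Figure D2:**
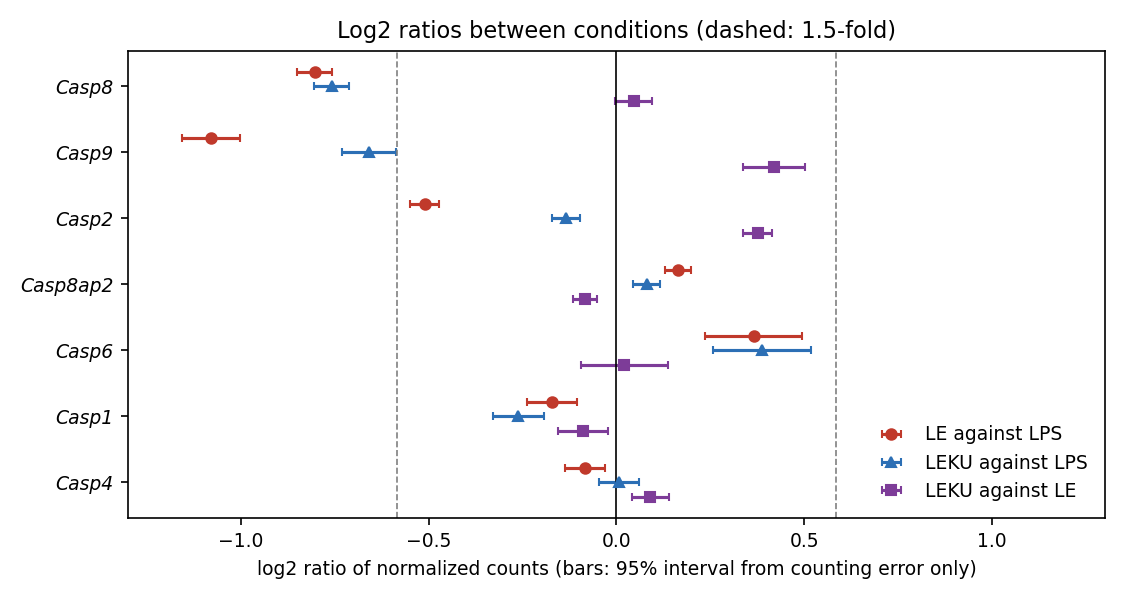
Log2 ratio of normalized counts (x axis) for each gene (y axis) in the 3 comparisons, with bars for the 95% interval from counting error only and dashed lines at 1.5-fold. Casp8 and Casp9 lie beyond the lower dashed line in both comparisons with LPS, and no gene lies beyond a dashed line in LEKU against LE.

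Casp8ap2 (ENSMUSG00000028282, chr4:32615451-32653265, plus strand) encodes FLASH, which was named for its link to Casp8 and acts in the processing of replication-dependent histone mRNAs. Its level was 1.12-fold higher in LE than in LPS. Its columns ranged from 2712 to 3130 in LPS, from 3576 to 4854 in LE and from 3161 to 3881 in LEKU, and its normalized levels were 3297, 3695 and 3485. The log2 ratio was 0.16 (0.13 to 0.20) for LE to LPS, 0.080 for LEKU to LPS and -0.084 for LEKU to LE.

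Casp6 (ENSMUSG00000027997, chr3:129901425-129914103, plus strand), the one executioner among the members, had the lowest counts of the 7. Its columns ranged from 179 to 207 in LPS, from 272 to 369 in LE and from 259 to 318 in LEKU. Normalized levels were 218, 281 and 285. The level was 1.29-fold higher in LE and 1.31-fold higher in LEKU than in LPS, at log2 ratios of 0.37 (0.24 to 0.50) and 0.39 (0.26 to 0.52), short of 1.5-fold. LEKU and LE differed by 0.021, with an interval from -0.094 to 0.14.

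The inflammatory caspases were short of 1.5-fold in all 3 comparisons. Casp1 (ENSMUSG00000025888, chr9:5298517-5307265, plus strand) had 971 normalized counts in LPS, 862 in LE and 810 in LEKU, with log2 ratios to LPS of -0.17 (-0.24 to -0.10) and -0.26 (-0.33 to -0.19). Casp4 (ENSMUSG00000033538, chr9:5308828-5336783, plus strand), which lies next to Casp1, had 1516, 1431 and 1524. Its log2 ratios to LPS were -0.083 (-0.14 to -0.031) in LE and 0.0071 (-0.045 to 0.060) in LEKU. Between LEKU and LE, Casp1 was at -0.090 and Casp4 at 0.090. The direction of Casp4 in both comparisons with LPS depended on how the libraries were scaled: its log2 ratio was 0.032 in LE with column totals and -0.065 in LEKU with TMM factors.

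Levels of different genes were compared per kb of annotated exon. In LPS, Casp8 was the highest at 879 normalized counts per kb, followed by Casp1 at 648, Casp8ap2 at 483, Casp2 at 455, Casp4 at 409, Casp9 at 195 and Casp6 at 39.0. In LE, Casp8 at 504 per kb stood below Casp1 at 576 and Casp8ap2 at 541, followed by Casp4 at 386, Casp2 at 320, Casp9 at 92.3 and Casp6 at 50.3. In LEKU, Casp1 was at 541, Casp8 at 520, Casp8ap2 at 511, Casp2 at 415, Casp4 at 411, Casp9 at 124 and Casp6 at 51.1. Casp9 and Casp6 were the lowest of the 7 in all 3 groups. Neighbours such as Casp8 and Casp8ap2 or Casp2 and Casp4 in LEKU lie close together, and without replicate spread their order cannot be told apart from error. Exonic length counts every annotated exon, which lowers the value of genes with many rarely used exons.

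Genes that work with caspases were taken as lists, which are described by the number past 1.5-fold without a test. Over all genes that passed the filter, 15.8% were past 1.5-fold lower and 22.2% higher in LE than in LPS. The shares were 15.3% and 20.8% in LEKU against LPS, and 11.8% and 7.06% in LEKU against LE. The counts of the lists stand beside these shares and were not tested against them. Of 7 apoptosome and mitochondrial death genes, 1 was past 1.5-fold higher and 2 lower in LE than in LPS. Apaf1, the scaffold on which Casp9 is activated, was at 2525 in LPS, 7114 in LE and 4349 in LEKU, with log2 ratios to LPS of 1.49 and 0.78, while Casp9 itself was lower. Htra2, a mitochondrial protease that antagonizes caspase inhibitors, was at 1243, 589 and 1028, a log2 ratio of -1.08 in LE and -0.27 in LEKU to LPS. Bid, which Casp8 cleaves to engage mitochondria, was at 2700, 1118 and 1315, with -1.27 and -1.04. In LEKU against LPS 1 was higher (Apaf1) and 2 lower (Bid, and Aifm1 at -0.84). In LEKU against LE, Htra2 was higher at 0.80, and Apaf1 at -0.71 and Cycs at -0.586 were lower. Cycs lay at the threshold itself, a log2 ratio of 0.585 in size, with a counting SE of 0.021.

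Both PIDDosome partners of Casp2 were past 1.5-fold in LE against LPS, in opposite directions. Pidd1 was at 913 in LPS, 7550 in LE and 4132 in LEKU, with log2 ratios to LPS of 3.05 and 2.18 and of -0.87 between LEKU and LE. Cradd was at 81.6, 43.4 and 60.0, with -0.90 in LE against LPS. Of the death receptor complex, in which Casp8 works, 8 of 9 genes passed the filter, and 4 were past 1.5-fold higher and 0 lower in LE than in LPS. Fas was at 331, 2578 and 1399, with log2 ratios to LPS of 2.96 and 2.08 and of -0.88 between LEKU and LE. Tnfrsf10b, a receptor for TRAIL, was at 292, 4781 and 3200, with 4.03 and 3.45. Cyld, a deubiquitinase, was at 1.01 and Ripk3, a kinase of necroptosis, at 0.67 in LE against LPS. Fadd, the adaptor between Fas and Casp8, was short of 1.5-fold at 0.19. In LEKU against LPS 2 of the 8 were higher (Fas and Tnfrsf10b), and in LEKU against LE 1 was lower (Fas).

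**Figure D3:**
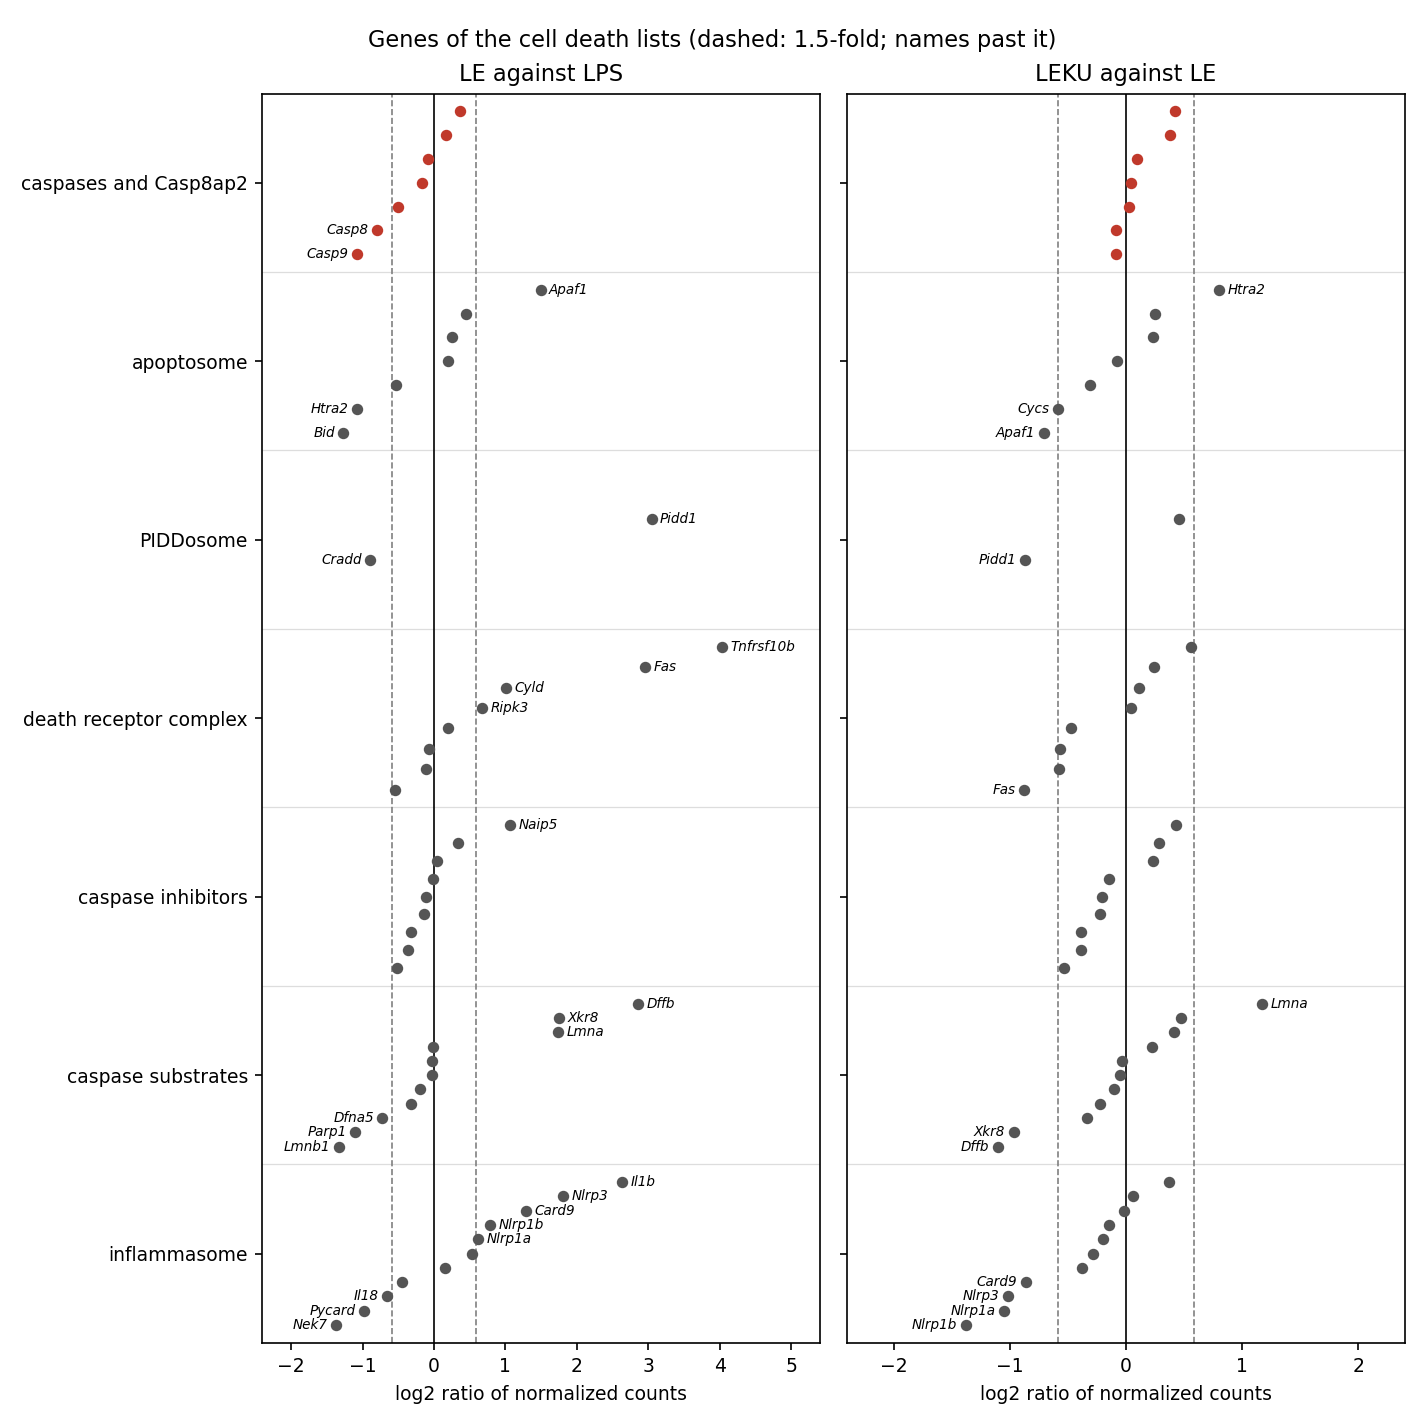
Log2 ratio of normalized counts (x axis, a different range in each panel) of LE against LPS and of LEKU against LE for single genes (points, spread vertically by rank) of the member list in red and of 6 other lists in grey, with dashed lines at 1.5-fold and names beyond them. Apaf1, Pidd1, Fas and Tnfrsf10b lie to the right of the dashed line in LE against LPS, and Casp8 and Casp9 to the left.

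Caspase inhibitors were mostly short of 1.5-fold. Of 9 such genes, Naip5, which also senses flagellin, was higher in LE than in LPS (331 to 694, log2 ratio 1.07) and in LEKU (531, 0.68). Birc5, a mitotic protein of the same family, was lower in LEKU than in LPS at -0.90. Xiap, a direct inhibitor of Casp9, was at -0.018, and Cflar, the inhibitory homologue of Casp8, at -0.32 in LE against LPS. Counts were 1 higher and 0 lower for LE to LPS, 1 and 1 for LEKU to LPS, and 0 either way for LEKU to LE.

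Of 11 measured caspase substrates and their partners, 3 were past 1.5-fold higher and 3 lower in LE than in LPS, and the same numbers held in LEKU against LPS. Dffb, the nuclease that fragments DNA once caspases have cleaved its inhibitor Dffa, was at 543 in LPS, 3940 in LE and 1832 in LEKU, with log2 ratios to LPS of 2.86 and 1.75 and of -1.10 between LEKU and LE. Dffa was short of 1.5-fold at -0.20 in LE against LPS. Xkr8, a scramblase switched on by cleavage, was at 136, 458 and 234, with 1.75 in LE against LPS. The lamin genes, targets of Casp6, differed in level and direction: Lmnb1 was at 6716, 2667 and 3697, with -1.33 and -0.86 to LPS, and Lmna at 9.15, 32.8 and 75.1, with 1.74 and 2.91. Lmna was under 10 in LPS and passed the filter through the groups where it was higher. In LEKU against LE, 1 gene of the list was higher (Lmna) and 2 lower.

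Of 11 measured inflammasome genes, 5 were past 1.5-fold higher and 3 lower in LE than in LPS, 2 higher and 4 lower in LEKU than in LPS, and 0 higher and 4 lower in LEKU than in LE. Il1b, whose product Casp1 matures, was at 22.4, 143 and 186, with log2 ratios to LPS of 2.63 and 3.00. Nek7, a partner of the sensor Nlrp3, was at 4197, 1626 and 1607, with -1.37 and -1.38. Nlrp3 at 3.65, 15.3 and 7.06 and Nlrp1b at 11.0, 19.8 and 6.98 were near the count minimum, so their ratios rest on few reads. Nlrp3 and Nlrp1a (8.54, 13.6 and 6.05) reached 10 counts only in LE and so had to be higher there, and the counts of genes past 1.5-fold include them. Of 6 macrophage and monocyte markers, 3 were past 1.5-fold higher and 1 lower in both LE and LEKU than in LPS. Cd14 was at 5.14, 24.3 and 40.6 and Cd68 at 104, 212 and 175, higher in LE and LEKU as Il1b was. Itgam, in contrast, was lower there, at 219, 129.5 and 115, and Adgre1 was at 48.7, 45.4 and 39.5. The part of these markers in the inflammasome values was not tested.

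The genes nearest to each member in their pair of log2 ratios (LE to LPS and LEKU to LE) were found among 10871 genes with a mean of at least 100. For Casp8 these were Fancl and Pitpnb, at distances of 0.0047 and 0.0087, and 85 genes lay within 0.1. For Casp9 they were Zfp710 and Mmgt2, at 0.012 and 0.013, with 34 genes within 0.1, fewer than for any other member. Casp2 was nearest to D10Jhu81e and 1700037C18Rik, with 99 genes within 0.1. For Casp6 these were Lrif1 and Foxj2 (178 within 0.1), for Casp1 Csnk1g2 and Polr1d (342), for Casp4 Ndufb11 and Serf2 (337), and for Casp8ap2 the gene models Gm13722 and Gm12350 (419). Within the member list Casp1 and Casp4 were nearest to each other, at 0.20, and Casp6 and Casp9 farthest apart, at 1.498. These distances rest on 3 group values per gene and are a description only.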

How the data were processed

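Per the labels, mRNAseq libraries came from 4 samples in each of 3 groups. The authors trimmed reads with cutadapt 1.2.1, mapped them with TopHat2 2.0.12 to GRCm38, counted them per Ensembl gene with HTSeq and fitted DESeq2 1.6.3. They deposited normalized counts, a signal per library that is the fitted group mean times a library factor (columns of a group are proportional to within 1.4e-14 on the log2 scale). The depth is known only from column totals, and fitted fold changes may be moderated toward 0, which was not checked. The strand setting of HTSeq is not given in the sources used here. The authors' 3 comparison files hold fold changes, standard errors and p-values and were not used.

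Columns were divided by median-of-ratios size factors over genes with a mean above 10, averaged per group and compared as log2(value + 1), with Python 3.11.15, numpy 2.4.6, pandas 2.3.3 and scipy 1.17.1. Genes needed a value of 10 in 4 libraries. The planned limma test needs replicate values and could not be run. Counting intervals treat the summed fitted values as reads. Coordinates, exonic lengths and overlaps come from GENCODE annotation of GRCm38, and promoters from RefSeq. Members, markers and 9 gene lists were chosen with earlier results of these data known. Of lists of at most 9 genes, those past 1.5-fold in any comparison are named, and of longer lists at most 4 with the largest ratios. Other genes named (Fadd, Xiap, Cflar, Dffa, Nlrp1a) were chosen after their values were seen. One further list is not reported here. Functions were tested on simulated data. The 15 alternatives were pseudocounts of 0.5 and 5, no filter or a minimum of 50, column totals, TMM, quantile normalization, a 2-fold threshold, each replicate number left out and, added after seeing the data, 3 other scalings.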

Additional observations from a re-analysis of the deposited data

How the results depend on the processing

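No paired analysis was possible because the columns of a group are proportional and hold no replicate values. For the same reason leaving out each replicate number moved ratios only through the size factors (Casp1 in LE against LPS between -0.173 and -0.169), which says nothing about stability: the number of members past 1.5-fold was 2, 2 and 0 (LE against LPS, LEKU against LPS, LEKU against LE) in each case. Scaling moved the members' median. For LE against LPS it was -0.056 with column totals, -0.24 with TMM, and, in scalings chosen after seeing the data, -0.10 with size factors from genes with a mean above 100, -0.27 with size factors from all genes and 0.15 with the columns as deposited. For LEKU against LPS it was 0.030, -0.21, -0.073, -0.20 and 0.091 in the same order, and 0.079 with quantile normalization. For LEKU against LE it was -0.049 with the columns as deposited. The median of all genes moved with these, to 0.11 and 0.20 (LE and LEKU against LPS) with column totals, to -0.11 in LE with size factors from all genes and to 0.32 and 0.26 with the columns as deposited. With column totals and with the columns as deposited 1 member (Casp8 with totals at -0.59, as deposited Casp6 in place of it at 0.61) was past 1.5-fold in LEKU against LPS, and Casp9 was at -0.49 and -0.43. In LE against LPS the columns as deposited also gave 2 members past 1.5-fold, but Casp9 with Casp6 (0.68) in place of Casp8 (-0.48). At a 2-fold threshold 1 member (Casp9) was past it in LE and 0 in LEKU against LPS. With size factors from all genes Casp2 was past 1.5-fold in LE against LPS, at -0.61. The LEKU difference as a percentage of the LE difference was 86.3% for Casp8 and 51.3% for Casp9 with column totals, and 110% for Casp8 with the columns as deposited. Casp8 and Casp9 were below LPS in both comparisons under every scaling and pseudocount tried and with each replicate number left out. A changed filter or fold threshold cannot turn a sign. Signs turned for Casp4 in both comparisons with LPS, for Casp2 in LEKU against LPS and for Casp8ap2 in LEKU against LE under 1 or 2 of 14 alternatives each, and with the columns as deposited also for Casp1 and Casp4 in LE against LPS, for Casp2 in LEKU against LPS and for Casp4, Casp6 and Casp8 in LEKU against LE. Each ratio's counting SE was between 0.016 and 0.067.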

Other observations

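Genes of the interferon response, a pathway that induces several caspases, were listed as a reference. Of 10 such genes, 0 were past 1.5-fold higher and 3 lower in LE than in LPS, 2 higher and 0 lower in LEKU than in LPS, and 6 higher and 0 lower in LEKU than in LE. For this list and the next, the shares of all genes higher and lower were 22.2% and 15.8% in LE against LPS. They were 20.8% and 15.3% in LEKU against LPS, and 7.06% and 11.8% in LEKU against LE. Ifit1, an antiviral RNA-binding protein, was at 1480 normalized counts in LPS, 1341 in LE and 5773 in LEKU, and Ifit3 at 634, 133 and 534. Stat2 and Gbp2 were at log2 ratios of 0.97 and 0.72 for LEKU to LE. Against LPS, Stat2 and Gbp2 were at -1.15 and -0.94 in LE and at -0.18 and -0.22 in LEKU. Between LEKU and LE, Casp1 and Casp4 were at -0.090 and 0.090.

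Of 10 genes that act with FLASH in histone mRNA processing, 0 were past 1.5-fold higher and 1 lower in LE than in LPS, 0 and 3 in LEKU than in LPS, and 0 either way in LEKU against LE. Cpsf3, the endonuclease of 3′ end processing, was at -0.65 in LE and -0.60 in LEKU against LPS. Slbp, the stem-loop binding protein, was at -0.61 and Cpsf2 at -0.65 in LEKU against LPS.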
